A study of Mus musculus with 36 samples.

Results

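The comparison is of lymphoid-primed multipotent progenitors (LMPP) sorted from bone marrow (BM) of leukaemic mice with the same sorted cells from non-leukaemic control mice. It rests on 8 of the 36 libraries of the series, the 4 labelled mixed leukaemia BM LMPP and the 4 labelled control BM LMPP, each from a mouse of its own per the labels. Leukaemia mice carried the fusion Kmt2a-AFF1 and overexpressed a microRNA, named miR-130b in the sample labels and miR-130a in the design text, and were sampled at terminal leukaemia. Control mice carried the same fusion with a scrambled microRNA, so that the fusion was shared and the microRNA and the disease differed together. LMPP were taken as lineage-negative cells positive for c-Kit, Sca-1 and Flt3. The design text speaks of a control mouse in the singular, whereas the labels give the 4 control libraries 4 different mouse names. The sources used here give neither the age of the mice nor how the fusion and the microRNA were delivered. RNA was converted with a stranded total RNA kit for picogram inputs. The leukaemia and control columns stand in separate tables, so table, cohort and disease cannot be told apart.

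LMPP are early blood progenitors that have begun to lose megakaryocyte and erythroid potential and can still give lymphoid and myeloid cells. Kmt2a encodes a histone methyltransferase, and its fusions to elongation factors such as Aff1 keep genes of the Hoxa cluster and Meis1 active in leukaemia. MicroRNAs lower the translation or stability of transcripts that carry a match to their seed, the bases near the 5′ end.

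The mature forms of both microRNAs named for the model are shown because the labels disagree on which was overexpressed. The seed, bases 2 to 8, is in capitals, and the sequences and positions are those of RefSeq on build GRCm38.p6.
mmu-miR-130b-3p (chr16:17124071-17124092, minus strand): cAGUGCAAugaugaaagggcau
mmu-miR-130a-3p (chr2:84741116-84741137, minus strand): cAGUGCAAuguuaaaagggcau
Both are 22 bases long, share the whole seed and differ at 2 positions. Their seed match in a transcript is TTGCACT. Neither form was measured by these libraries. The hairpin gene Mir130b had counts of 8, 2, 0 and 2 in leukaemia LMPP and of 5, 1, 3 and 2 in control LMPP, and Mir130a had 0, 0, 0 and 1 in leukaemia LMPP and 0, 3, 2 and 1 in control LMPP. The overexpression could therefore not be checked.

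Library totals were 30.4, 12.4, 1.91 and 18.4 M counts in leukaemia LMPP and 7.37, 7.65, 9.78 and 11.9 M counts in control LMPP. A uniform background along the genome was estimated from 1516 sensory receptor genes, which were taken as silent in these cells. It made up 0.553 to 6.68% of counts in leukaemia LMPP and 14.8 to 28.9% in control LMPP, and it differed by 4.93-fold among the control libraries. A gene counted as above background if its reads exceeded 3 times what background gives over its exon length, plus 10 counts. Between 10152 and 15616 genes did so in leukaemia LMPP and between 2549 and 9406 in control LMPP. Of the 12116 autosomal genes tested, 2468 were above background in at least 3 libraries of both groups. Levels are given in CPM, the counts as deposited divided by a library size scaled on those 2468 genes. Going by Xist, sex also went with disease. Xist, expressed from the inactive X chromosome of females, had 20, 24, 1 and 44 counts in leukaemia LMPP and 2154, 4760, 4899 and 9536 in control LMPP, and genes of chromosomes X and Y were set aside. Of the Y genes, Ddx3y had 1146, 503, 69 and 179 counts in leukaemia LMPP and 0, 10, 85 and 2 in control LMPP. Eif2s3y had 0, 4, 25 and 0 counts in control LMPP. Control library 3 thus held Y reads beside Xist. Uniform background alone would give 76.7 counts of Ddx3y and 61.4 of Eif2s3y in that library. For Ddx3y it would give 80.3, 84.1 and 59.4 counts in control libraries 1, 2 and 4. The source of the Y reads in control library 3 was not tested. Sex and disease cannot be told apart in the autosomal genes.

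**Figure D1:**
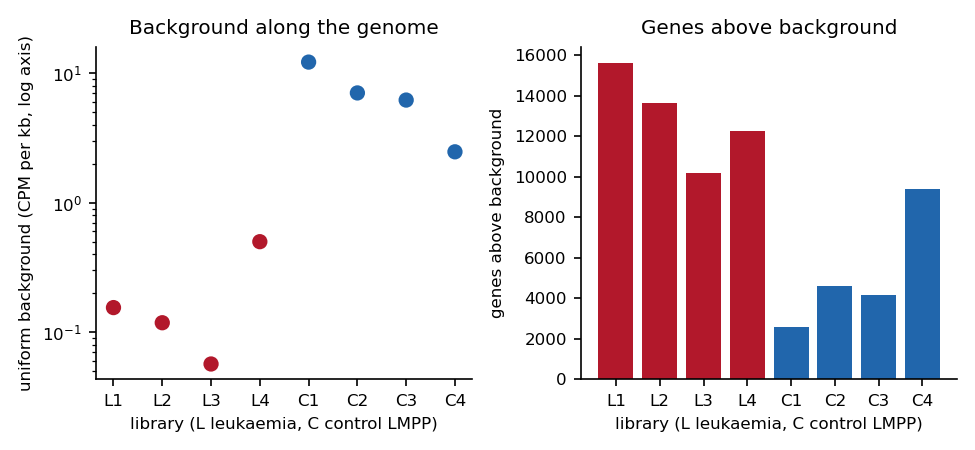
Uniform background in CPM per kb of exon on a log axis (left) and number of genes above background (right) for the 4 leukaemia LMPP libraries (L1 to L4) and the 4 control LMPP libraries (C1 to C4). Background ran from 0.0566 to 0.499 CPM per kb in leukaemia LMPP and from 2.47 to 12.2 CPM per kb in control LMPP, and control library 4 had the most genes above background of its group.

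The sorted cells were checked against markers of the gate. Flt3, the receptor tyrosine kinase that defines LMPP within the gate, had 205, 719, 521 and 478 CPM in leukaemia LMPP and 580.1, 482, 636 and 775 CPM in control LMPP. Ly6a, which encodes Sca-1, had 14.5, 28.9, 41.2 and 40.3 CPM in leukaemia LMPP and 48.9, 50.1, 52.6 and 21.2 CPM in control LMPP. All of 7 LMPP markers were above background in both groups. Of 4 B cell, 3 T cell, 3 platelet and 5 macrophage markers, none was above background in 3 libraries of either group. Of 5 erythroid markers 2 were in both groups, with a summed level of 83.9 to 345 CPM in leukaemia LMPP and 84.5 to 197 CPM in control LMPP. Of 4 stroma and endothelium markers 2 were in leukaemia LMPP and 1 in control LMPP, with sums of 158 to 211 CPM in leukaemia LMPP and 269 to 654 CPM in control LMPP, where background alone would give 62.2 to 307 CPM. The summed level of 6 neutrophil markers was 4113 CPM in leukaemia library 1, 7.09 to 20.6 CPM in the other leukaemia libraries and 91.4 to 306 CPM in the controls.

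The first question was which genes differed between leukaemic and control LMPP. With the counts as deposited, edgeR's quasi-likelihood test called 3078 genes (25.4% of 12116) higher and 3419 (28.2%) lower in leukaemia at a Benjamini-Hochberg adjusted p of 0.05. Genes above background in both groups had a median log2 fold change of 0.76 in that test, and 68 of 73 ribosomal protein genes were called higher. Of the 3419 genes called lower, 3284 were above background in fewer than 2 controls, varied more than 2.5-fold among the controls or overlapped between groups. A second edgeR test, chosen after seeing the data, subtracted the uniform background and scaled the libraries on the 2468 genes. There the median of those genes was 0.04, 810 genes (6.69%) were called higher and 2317 (19.1%) lower, and 1 ribosomal protein gene was called. Higher genes made up 47.4% of all calls with counts as deposited, 25.9% in the background-corrected test and 8.86% where counts as deposited were scaled on the 2468 genes.

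In what follows a gene rose or fell when both tests called it in the same direction and the CPM of the groups, with background left in, did not overlap. A rise also required the gene to be above background in at least 3 leukaemia libraries. A fall required it to be above background in at least 2 control libraries whose levels lay within 2.5-fold of each other across the group, since background alone varied more. By these rules, also chosen after seeing the data, 204 genes rose (1.68% of 12116) and 134 fell (1.11%). Without any single library the counts were 174 to 204 and 89 to 135, with the lowest count of falls without control library 2. These counts repeated both tests only. The rules on overlap, background and control levels were kept from all libraries, so no gene could enter through them. Fold changes below are log2 values of the background-corrected test with their standard errors, and "edgeR adjusted p" is that test's value.

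**Figure D2:**
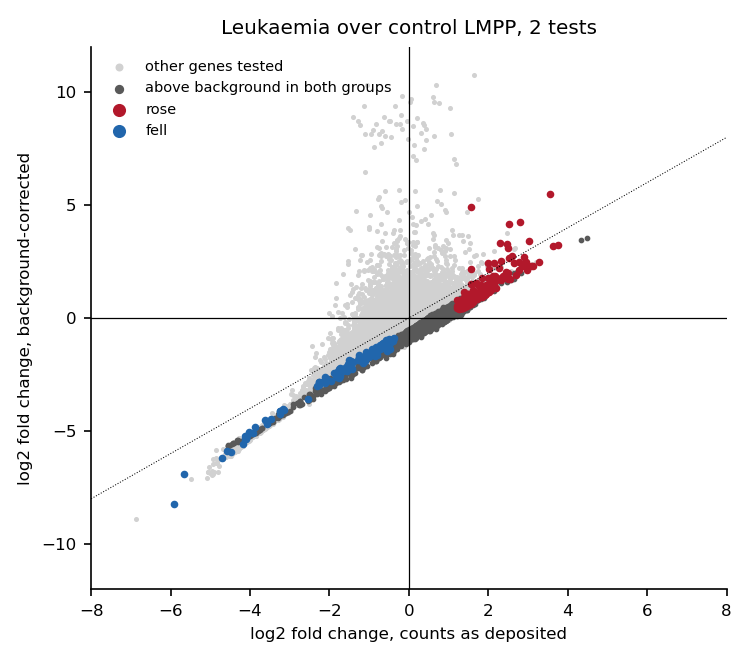
Log2 fold change of leukaemia over control LMPP for 12116 genes, with counts as deposited (x axis) and after background correction (y axis); the dotted line marks equal values. Genes above background in both groups (dark grey) lie below the dotted line, with medians of 0.76 on the x axis and 0.04 on the y axis, and the 204 genes that rose (red) and the 134 that fell (blue) are on opposite sides of 0 on both axes.

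The rule for named rises, applied to the counts as deposited, returned 15 genes, all of which rose. Irf8, a transcription factor of monocytes and dendritic cells, had 875, 1528, 710.3 and 1060 CPM in leukaemia LMPP, against 156, 153, 174 and 174 CPM in control LMPP. It rose by 3.17 ± 0.31 on the log2 scale (edgeR adjusted p = 0.000345). Every leukaemia mouse lay well above the controls, which were even although background alone would give 17.4 to 86.0 CPM there. Mpeg1, a pore-forming protein of phagocytes, had 622, 1720, 492 and 612 CPM in leukaemia LMPP, against 90.0, 102, 149 and 140.3 CPM in control LMPP. It rose by 3.24 ± 0.49 (edgeR adjusted p = 0.00122). Tyrobp, an adaptor of activating receptors on myeloid and natural killer cells, had 135, 140.2, 154 and 119 CPM in leukaemia LMPP, against 48.1, 30.9, 29.9 and 22.7 CPM in control LMPP. Its rise of 2.30 ± 0.21 (edgeR adjusted p = 0.000345) was even, with the 4 leukaemia mice close together. Tifab, an inhibitor of TRAF6 signalling, rose by 2.40 ± 0.16 to 313, 274, 386 and 309.5 CPM in leukaemia LMPP, against 113, 88.0, 73.6 and 66.8 CPM in control LMPP.

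Further genes named by the same rule have varied roles. Lgals1, a galectin, had 210.0, 137, 168 and 160.0 CPM in leukaemia LMPP and 46.6, 51.0, 30.7 and 32.6 CPM in control LMPP (2.32 ± 0.21). Lgals3, another galectin, had 28.6 to 94.8 CPM in leukaemia LMPP and 9.94 to 22.9 CPM in control LMPP, where background alone would give 4.59 to 22.6 CPM. Its fold change of 4.25 ± 0.83 therefore has a control level that was not distinguishable from background. The same held for Ly6k, a GPI-anchored surface protein, at 12.8 to 38.8 CPM in leukaemia LMPP against 1.68 to 11.8 CPM in control LMPP. Plac8, a small cysteine-rich protein of blood progenitors, rose by 1.90 ± 0.19 and Cd52, a surface glycoprotein of leukocytes, by 2.33 ± 0.26. Cst3, a secreted inhibitor of cathepsins, had 268, 1046, 374 and 314 CPM in leukaemia LMPP and 97.9, 136, 119 and 134 CPM in control LMPP. Ahnak, a large scaffold protein, had 1019, 3509, 1404 and 1022 CPM in leukaemia LMPP and 518, 404, 474 and 388 CPM in control LMPP. In both genes leukaemia library 2 stood well above the other leukaemia libraries, which still exceeded every control. Tmem229b and Ifi205, an interferon-inducible gene with near-identical neighbours and thus uncertain counts, rose by 2.47 ± 0.21 and 3.41 ± 0.76.

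A few more of the 204 genes, picked after their values were seen, are given as examples and stand for no group. Cyba and Ncf1, subunits of the oxidase, rose by 1.40 ± 0.22 and 1.57 ± 0.25. Ncf1 had 267, 253, 232 and 226 CPM in leukaemia LMPP and 131, 70.1, 104 and 124 CPM in control LMPP. Lyn, a Src family kinase, rose by 1.62 ± 0.33, Ptpn6, a phosphatase that restrains receptor signalling, by 1.23 ± 0.14, and Clec12a, an inhibitory lectin receptor of myeloid cells, by 1.88 ± 0.15. Unc93b1, which carries nucleic acid sensors to endosomes, had 322, 487, 262 and 311 CPM in leukaemia LMPP and 97.9, 135, 117 and 131 CPM in control LMPP (1.79 ± 0.25).

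**Figure D3:**
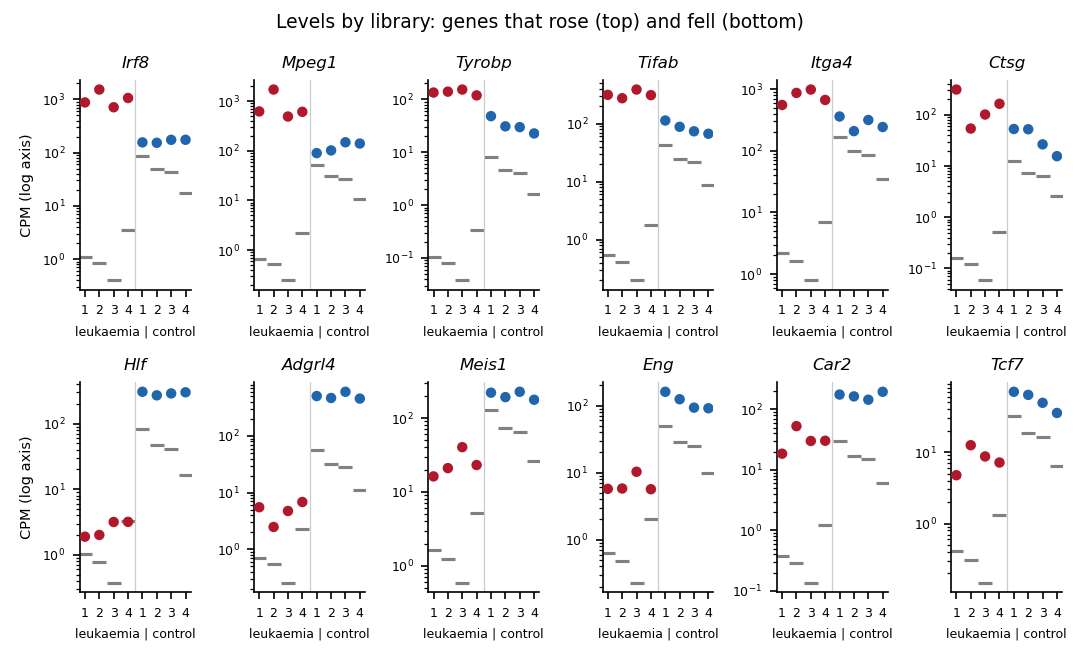
CPM on log axes in each library for 6 genes that rose (top row) and 6 that fell (bottom row), leukaemia LMPP in red at the left and control LMPP in blue at the right of each panel; grey dashes mark the level that uniform background alone would give. The groups do not overlap in any of the 12 panels, and Hlf in leukaemia LMPP, at 1.89 to 3.18 CPM, sits at or close to background in library 4.

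Among the falls, Hlf and Adgrl4 had the largest log2 fold changes in both tests. Hlf, a transcription factor of haematopoietic stem cells, had 1.89, 2.01, 3.17 and 3.18 CPM in leukaemia LMPP, against 305, 269, 288 and 299 CPM in control LMPP. Its log2 fold change was -8.24 ± 0.61 by the background-corrected test (edgeR adjusted p = 0.000168). Adgrl4, an adhesion receptor known from endothelium, had 5.53, 2.48, 4.75 and 6.84 CPM in leukaemia LMPP, against 505, 467, 601 and 456 CPM in control LMPP (-6.91 ± 0.30, edgeR adjusted p = 5.1e-06). Both genes were near absent in every leukaemia mouse and even across the controls, whose background varied widely. Eng, a coreceptor for TGF-beta ligands on stem cells and endothelium, had 5.72, 5.79, 10.3 and 5.65 CPM in leukaemia LMPP, against 160.2, 124, 93.0 and 91.0 CPM in control LMPP (-4.02 ± 0.32). Mecom, a transcription factor needed by stem cells, had 50.1, 80.0, 123 and 87.4 CPM in leukaemia LMPP, against 336, 301, 257 and 198 CPM in control LMPP. It fell by 1.20 ± 0.25 (edgeR adjusted p = 0.00546), and it missed the threshold with counts as deposited without control library 2 (adjusted p = 0.0897) or 3 (0.0696).

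The rule for named falls, applied to the counts as deposited, returned Hlf and Adgrl4 followed by 13 genes that varied among the controls. Most of the 13 were vomeronasal receptor genes with near-identical copies. Control levels of the 13 genes differed by 2.72-fold to 6.78-fold, so the falls given here were taken from the 134 instead. Enzymes and chromatin genes were among the 134. Glul, glutamine synthetase, had 10.5, 30.9, 30.9 and 16.1 CPM in leukaemia LMPP and 189, 112, 172 and 131 CPM in control LMPP (-2.63 ± 0.38). The glycolytic enzymes Pfkm and Hk1 fell by 2.15 ± 0.27 and 1.32 ± 0.16, Gcnt2, a glycosyltransferase, by 4.11 ± 0.21, Gstp1, a glutathione transferase with a near-identical neighbour, by 1.62 ± 0.23, and Msrb3, a methionine sulfoxide reductase, by 2.85 ± 0.54. Chd3, a chromatin remodeller, had 9.26, 10.0, 7.92 and 57.6 CPM in leukaemia LMPP and 463, 349, 397 and 390.4 CPM in control LMPP (-4.05 ± 0.63). Bahcc1, a chromatin reader, fell by 4.52 ± 0.55, and Xrcc5 (-4.10 ± 0.42), which encodes the Ku80 subunit of DNA end joining, had 1.79 to 4.46 CPM in leukaemia LMPP, against 32.6 to 62.4 CPM in control LMPP. Smarca2, an ATPase of the SWI/SNF complex, fell by 1.23 ± 0.29, and Zfpm1, a cofactor of GATA factors, by 1.28 ± 0.21. The Smarca2 call was lost without leukaemia library 1 or 4 or control library 2 or 3 (adjusted p with counts as deposited 0.0716 to 0.102).

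Alternatives that let genes at background set the scale reversed several falls. With no background filter, the median log2 fold change of genes above background in both groups was 2.36 to 2.53 with counts as deposited. Relative to that shift every fall named here remained negative, but taken as printed Mecom, Hk1, Pfkm, Gstp1, Car2, Lax1, Nkg7, Zfpm1, Smarca2, Mllt6 and Ddx58 turned positive under both alternatives and Tcf7 under one.

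Kit, which encodes the c-Kit receptor of the gate, had 177, 172, 144 and 150.1 CPM in leukaemia LMPP and 375, 304, 391 and 296 CPM in control LMPP. The background-corrected test gave -0.81 ± 0.15 (edgeR adjusted p = 0.00302), and the test with counts as deposited gave -0.09 ± 0.20 (edgeR adjusted p = 0.729). Flt3 and Ly6a had differences of -0.26 ± 0.33 and -0.18 ± 0.39 after correction (edgeR adjusted p = 0.589 and 0.771) and of 0.54 ± 0.38 and 0.55 ± 0.31 with counts as deposited. Of 11 sort and surface genes, 9 were tested, 2 rose and 0 fell. Cd48, a ligand of the SLAM family that appears as stem cells mature, had 68.0, 86.2, 85.5 and 78.9 CPM in leukaemia LMPP, against 47.4, 48.8, 54.3 and 39.6 CPM in control LMPP (1.01 ± 0.18).

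Lymphoid genes moved in different directions. Of 18 genes of lymphoid priming and rearrangement, 10 were tested, 1 rose and 1 fell, with a median of 0.07 against -0.12 over all genes tested. Satb1, a chromatin organiser that favours lymphoid fate, had 328, 357, 612 and 407 CPM in leukaemia LMPP, against 315, 248, 302 and 254 CPM in control LMPP (1.51 ± 0.30). Lax1, an adaptor that damps lymphocyte receptor signals, fell by 1.74 ± 0.39. Dntt, the terminal transferase that adds bases to rearranging antigen receptor genes, had 101, 63.9, 322 and 284 CPM in leukaemia LMPP, against 568, 547, 742 and 994 CPM in control LMPP. The groups did not overlap, and the background-corrected test gave -1.87 ± 0.48 (edgeR adjusted p = 0.0155), but the test with counts as deposited gave -1.04 ± 0.50 (edgeR adjusted p = 0.0985). Of 20 T and natural killer cell genes, 4 were tested and 2 fell. Tcf7, a transcription factor of T cell progenitors, had 4.75, 12.5, 8.71 and 7.16 CPM in leukaemia LMPP, against 70.2, 63.6, 49.2 and 35.5 CPM in control LMPP (-2.24 ± 0.38), and Nkg7, a granule protein of cytotoxic cells, fell by 2.33 ± 0.46. Lat, the adaptor of the T cell receptor that mast cells and platelets also use, had 4.46 to 11.9 CPM in leukaemia LMPP and 41.7 to 97.1 CPM in control LMPP (-2.72 ± 0.40). Of 17 B cell genes, 7 were tested and 0 rose or fell, with 3 called higher and 2 lower with counts as deposited and 0 and 2 after correction.

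The stem cell list held 21 genes, of which 5 were tested and 2, Hlf and Mecom, fell. The other 16 did not pass the filter in either group. Summed over 5 stem cell markers, the level was 55.9 to 129.9 CPM in leukaemia LMPP and 569.6 to 919.5 CPM in control LMPP, where background would give 82.97 to 409 CPM. The 5 markers include Hlf and Mecom, so the sum is not separate from these 2 falls. Of the 5, 1 was above background in leukaemia LMPP and 2 in control LMPP. Fewer stem-like cells within the gate and less RNA per cell cannot be told apart in these bulk samples, here and in the other lists.

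Targets of Kmt2a fusions did not move together. Of 25 listed targets 19 were tested, 2 rose and 1 fell, with a median of 0.38. Hoxa10 had 109, 80.5, 154 and 138 CPM in leukaemia LMPP, against 52.9, 50.1, 59.3 and 63.3 CPM in control LMPP (1.78 ± 0.37, edgeR adjusted p = 0.00541). Runx2 rose by 0.82 ± 0.18 to 269, 319, 333 and 312 CPM in leukaemia LMPP, against 262, 186, 254 and 237 CPM in control LMPP. Meis1, the cofactor of Hoxa proteins and a classical target of these fusions, had 16.2, 21.0, 40.4 and 23.1 CPM in leukaemia LMPP, against 220.2, 192, 226 and 177 CPM in control LMPP. Its fold change was -2.60 ± 0.32 (edgeR adjusted p = 0.000651). The control levels were even, although in control library 1 background alone would give 128 CPM. Hoxa9 and Hoxa7, neighbours of Hoxa10, had values that overlapped between the groups, with fold changes of 0.38 ± 0.21 (edgeR adjusted p = 0.225) and 0.52 ± 0.22 (edgeR adjusted p = 0.108). Bcl2, an inhibitor of apoptosis, and Cdk6, a cell cycle kinase, were called higher by both tests (1.39 ± 0.37 and 0.90 ± 0.25), but their groups overlapped. The background-corrected edgeR call was lost without 1 library for Bcl2 (adjusted p = 0.0527) and without any 1 of 3 for Cdk6 (0.0511 to 0.0716). Among 25 genes of the Kmt2a complex and its elongation partners, 23 were tested, 0 rose and 1 fell. This was Mllt6, a cofactor of the Dot1l methyltransferase (-1.38 ± 0.40), whose call was lost without any 1 of 6 libraries.

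Reported targets of miR-130 showed no common direction either. Of 21 listed, 15 were tested, 1 rose and 0 fell, with a median of 0.09. With counts as deposited 4 were called higher and 5 lower, and after correction 1 and 3. Atg2b, Esr1 and Tsc1 were called lower by both tests (-0.62 ± 0.16, -0.87 ± 0.27 and -0.77 ± 0.21) but did not meet the further rules for a fall. Cbfb, the partner of the Runx factors, had 112, 108, 125 and 110.1 CPM in leukaemia LMPP, against 102, 94.9, 83.7 and 89.3 CPM in control LMPP. It rose by 0.72 ± 0.15 (edgeR adjusted p = 0.00599). The seed match TTGCACT was searched on the sense strand of annotated 3′ untranslated regions (UTRs), the longest per gene. It was present in 1165 tested genes (12.2% of those with such a region), absent from 8418, and present in 12 of the 15 targets tested. Genes with a match had a median of 0.07 and genes without one -0.10. Among those above background in both groups, the medians were 0.0973 with a match and 0.1045 without one. Of all genes with a match 1.2% rose and 0.858% fell, and of all genes without one 2.1% rose and 1.13% fell. These shares were not tested against each other. Hlf, the largest fall, held 3 matches in its 4223-base UTR; 0.271% of genes held 3 or more. Cbfb held 1. Meis1, Mecom and Irf8, also searched, returned no match. The stretches around the matches are shown for Cbfb and Hlf, chosen after their values were seen. They come from GENCODE transcripts on GRCm38, with the seed match in capitals.
Cbfb, match 1: gccatggttTTGCACTataatg
Hlf, match 1: gagtgtgttTTGCACTgtctgt
Hlf, match 2: gttcaagggTTGCACTgtggcc
Hlf, match 3: tggctctgaTTGCACTtgcttc
A match describes these letters only. Genes with a match had longer UTRs, with a median of 2566 bases against 1192.

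Among the lineage lists, those of granulocyte and monocyte progenitors and of dendritic cells held the most rises. Of 20 genes of granulocyte and monocyte progenitors, 15 were tested, 3 rose and 1, Nkg7, fell, with a median of 1.36. Ctsg, a serine protease of primary granules, had 312, 54.0, 101 and 164 CPM in leukaemia LMPP, against 52.9, 52.2, 26.5 and 15.6 CPM in control LMPP (2.46 ± 0.56). Calr, an endoplasmic reticulum chaperone, had 1146, 645, 664 and 679 CPM in leukaemia LMPP, against 324, 342, 336 and 333 CPM in control LMPP (1.32 ± 0.20). Cst7, a cystatin of immune cells, rose by 3.26 ± 0.87 with no control library above background, and the call was lost without leukaemia library 1. Cebpa, the transcription factor that starts granulocyte fate, and Ly6c2, a monocyte surface protein, were called higher by both tests (1.72 ± 0.38 and 3.08 ± 0.63) with groups that overlapped. Of 18 dendritic cell genes, 17 were tested, 4 rose and 0 fell, with a median of 0.85. These were Irf8, Runx2, Id2, an inhibitor of E proteins (67.4, 291, 72.1 and 67.9 CPM in leukaemia LMPP, 48.1, 30.9, 40.8 and 39.1 CPM in control LMPP), and Bst2, a surface protein of plasmacytoid dendritic cells (1.70 ± 0.39). None of the 17 dendritic cell genes was above background in at least 3 libraries of both groups. By the rules, a gene above background in fewer than 2 control libraries could rise but not fall. Siglech, Clec9a, Cd7 and Itgax were called higher by both tests but overlapped between groups. In the background-corrected edgeR test Cd7 lost its call without any 1 of 6 libraries (adjusted p = 0.0739 to 0.166) and Itgax without any 1 of 5 (0.0523 to 0.0853).

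Single leukaemia mice stood apart in these lineage genes. Library 2 had the highest level of the 4 genes of MHC class II called by both tests. Cd74, the invariant chain, had 437, 3539, 715 and 683 CPM in leukaemia LMPP and 152, 192, 292 and 459.8 CPM in control LMPP. H2-Ab1 had 218, 2139, 441 and 394 CPM in leukaemia LMPP and 155, 135, 213 and 257 CPM in control LMPP. H2-Aa and H2-Eb1 followed the same order, with 1169 and 909.9 CPM in library 2. The groups overlapped for all 4 genes, so that 0 of 10 class II genes rose. Clec9a, a receptor of cross-presenting dendritic cells, had 188 CPM in library 2, 38.8 to 52.7 CPM in the other leukaemia libraries and 29.4 to 62.4 CPM in control LMPP.

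Leukaemia library 1 differed in another way. Mpo, myeloperoxidase of primary granules, had 1974, 139, 247 and 452 CPM in leukaemia LMPP and 238, 222, 172 and 183 CPM in control LMPP (1.97 ± 0.69, edgeR adjusted p = 0.0603). S100a9, a protein of mature neutrophils, had 1020, 1.42, 3.96 and 3.66 CPM in leukaemia LMPP and 29.2, 59.2, 9.68 and 8.00 CPM in control LMPP. Without library 1, S100a9 was lower in leukaemia with counts as deposited (-2.11, edgeR adjusted p = 0.0208). Of 16 mature neutrophil genes 5 were tested and 0 rose or fell. What share of the granule genes in library 1 came from neutrophils was not tested; Ctsg and Calr rose also without that library.

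**Figure D4:**
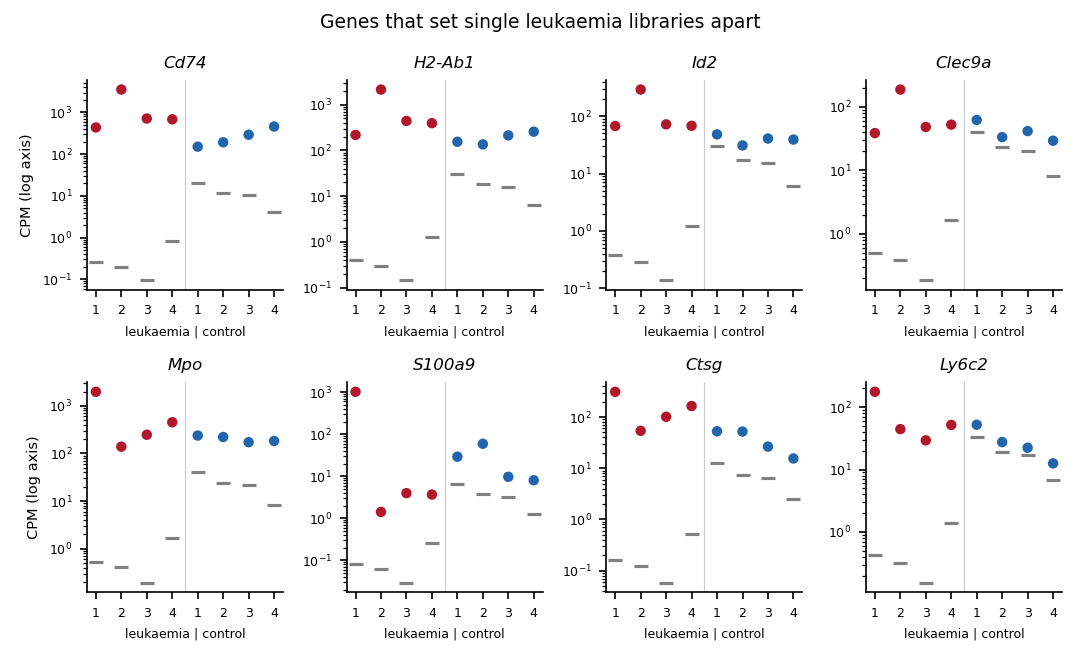
CPM on log axes in each library for 8 lineage genes, leukaemia LMPP in red at the left and control LMPP in blue at the right of each panel; grey dashes mark the level of uniform background. Leukaemia library 2 is highest for Cd74 (3539 CPM), H2-Ab1 (2139 CPM), Id2 and Clec9a, and leukaemia library 1 for Mpo (1974 CPM), S100a9 (1020 CPM), Ctsg and Ly6c2.

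The other lineage lists had between 2 and 11 genes tested each, against shares of 1.68% that rose and 1.11% that fell over all genes. Of 20 erythroid genes, 7 were tested, 1 rose and 1 fell. Car2, carbonic anhydrase of the erythroid line and of early progenitors, had 18.5, 52.9, 30.1 and 30.3 CPM in leukaemia LMPP, against 176, 164, 145 and 196 CPM in control LMPP (-2.24 ± 0.30). Tfrc, the transferrin receptor of erythroid and dividing cells, had 142, 138, 179.8 and 167 CPM in leukaemia LMPP, against 118, 63.6, 99.3 and 70.0 CPM in control LMPP (1.79 ± 0.29). The globin gene Hbb-bs had 74.7, 232, 306 and 153 CPM in leukaemia LMPP and 74.2, 94.5, 44.2 and 43.2 CPM in control LMPP, with overlapping groups. Plek, a substrate of protein kinase C in platelets and leukocytes, rose by 1.68 ± 0.26 as 1 of 5 megakaryocyte genes tested of 17. Of 11 monocyte and macrophage genes tested of 19, 2 mast cell genes tested of 15 and 3 stroma and endothelium genes tested of 16, 0 rose or fell. Among 36 fate transcription factors, 25 were tested, 4 rose (Irf8, Id2, Satb1 and Spi1) and 1 fell (Tcf7). Spi1, which encodes the myeloid factor PU.1, had 133, 120.1, 108 and 107 CPM in leukaemia LMPP, against 93.1, 92.3, 90.5 and 83.2 CPM in control LMPP (0.72 ± 0.15).

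Among the 33 lists, adhesion and homing genes had the most rises. Of 28 integrins and homing genes, 19 were tested, 7 rose and 0 fell, with a median of 0.85. Of the 19, 7 were above background in both groups. Among all such genes with a 3′ UTR, 5.47% with a seed match and 8.26% without one rose. Itga4, the alpha subunit of the VLA-4 integrin, had 555, 870.1, 987 and 669.9 CPM in leukaemia LMPP, against 361, 209, 316 and 243 CPM in control LMPP (2.05 ± 0.26, edgeR adjusted p = 0.00071). Itgb7, which pairs with it in gut homing, rose by 1.49 ± 0.27, and Itgb2, the shared beta subunit of leukocyte integrins, by 1.34 ± 0.29. Selplg, the ligand of P-selectin, had 317, 449, 301 and 324 CPM in leukaemia LMPP, against 168, 155, 158 and 166 CPM in control LMPP (1.39 ± 0.17). Cxcr4, the receptor of the marrow chemokine Cxcl12, had 103, 146, 86.3 and 97.1 CPM in leukaemia LMPP, against 71.8, 46.2, 66.0 and 57.9 CPM in control LMPP (1.18 ± 0.22). Ccr1, a receptor of inflammatory chemokines, had 55.1, 61.5, 47.5 and 61.7 CPM in leukaemia LMPP and 37.1, 16.1, 22.7 and 11.2 CPM in control LMPP, where no library was above background.

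Housekeeping lists are to be read against the 1.68% of all genes that rose. Where most members were above background in both groups, as for 70 ribosomal protein genes, the shares of 5.47 and 8.26% apply. They also apply to oxidative phosphorylation (20 of 33 genes tested) and heat shock chaperones (6 of 11). Of 42 cell cycle genes, all 42 were tested and 1 rose. This was Ccnd1, a D-type cyclin, at 97.3, 132, 102 and 111 CPM in leukaemia LMPP, against 87.6, 61.4, 72.8 and 58.1 CPM in control LMPP (1.55 ± 0.21). Of 75 ribosomal protein genes 73 were tested and 1, Rpl8, rose (0.63 ± 0.14), and of 27 ribosome biogenesis genes 26 were tested and 0 rose or fell. Nuclear genes of oxidative phosphorylation had 33 of 34 tested and 3 that rose, among them Cox4i1 (0.50 ± 0.15), whose call was lost without any 1 of 5 libraries. Of 22 glycolysis genes tested of 26, 0 rose and 1, Hk1, fell, while Ldha was called higher by both tests (0.60 ± 0.14) with groups that overlapped. Of 11 heat shock chaperones tested of 13, 2 rose, among them Hspa5 of the endoplasmic reticulum (0.83 ± 0.18). In the lists of cholesterol synthesis (22 of 24 tested), amino acid stress (17 of 23), immediate early genes (14 of 24), interferon gamma GTPases (12 of 16), p53 response (14 of 20) and BCL2 family (11 of 18), 0 rose or fell.

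Signalling genes gave single calls. Of 32 type I interferon genes 30 were tested, 0 rose and 1 fell, with a median of -0.26; with counts as deposited 5 were called higher and 11 lower, and after correction 3 and 7. This was Ddx58, the RNA sensor RIG-I, at 17.0, 13.8, 28.5 and 23.7 CPM in leukaemia LMPP, against 171, 83.2, 137 and 80.2 CPM in control LMPP (-1.88 ± 0.35). Among 24 cytokine receptor genes tested of 34, 1 rose, Ifnar2, a chain of the type I interferon receptor (1.00 ± 0.23). Mcl1, an inhibitor of apoptosis, had 145, 341, 173 and 147 CPM in leukaemia LMPP and 162, 111, 129 and 123 CPM in control LMPP, and its groups overlapped.

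The next question was whether the leukaemia effect in LMPP differed from that in the other sorted cells of the marrow, tested as an interaction over 24 BM libraries and 13063 genes. The names of the control mice share a stem across LMPP, HSC and LK for each replicate number, so the control libraries of the 3 cell types appear to come from the same 4 animals, which the fit treats as independent. CPM in this comparison are scaled over the 24 libraries and differ from those above. LMPP and HSC/MPP (the Flt3-negative stem cells and multipotent progenitors, called HSC here) gave few differences. edgeR called 0 genes higher and 0 lower with counts as deposited, 1716 had an unadjusted p under 0.05, and DESeq2 called 211. The background-corrected test called 3 higher and 26 lower. The count without a single LMPP library was 0 to 610, with 610 without leukaemia library 4 and 40 without leukaemia library 1. Background in leukaemia HSC was 9.36 to 28.0% of counts, above that of leukaemia LMPP. Side by side, the fold change of Irf8 was 3.24 in LMPP and 3.35 in HSC, that of Tyrobp 2.38 and 2.03, that of Hlf -8.19 and -8.37, that of Meis1 -2.54 and -3.24 and that of Mecom -1.12 and -1.19. Other genes had unlike values. Clec12a was at 1.96 in LMPP and 6.70 in HSC, a difference called by the background-corrected test (-4.74 ± 0.59, edgeR adjusted p = 0.000569) and not with counts as deposited (-0.96 ± 0.25, edgeR adjusted p = 0.161). Mpeg1 was at 3.30 in LMPP and 7.44 in HSC (edgeR adjusted p of the difference = 0.150), and Satb1 at 1.58 and 4.50 (0.225). The genes with the smallest p were Ighm, Rexo2, Siglech, Slc14a1 and Itgax on the side of LMPP and Gzmb, AC140325.1, Parm1, Armc9 and Cd200r3 on the other, with adjusted p between 0.0859 and 0.132 in the edgeR test with counts as deposited. Of these 10, the background-corrected test called Ighm, Slc14a1, Gzmb and AC140325.1 (edgeR adjusted p = 0.00886 to 0.0337), and its values for the others were 0.057 to 0.497. For Siglech, a receptor of plasmacytoid dendritic cells, the background-corrected fold changes were 2.29 in LMPP and -0.51 in HSC (difference 2.804 ± 0.709, edgeR adjusted p = 0.127).

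LMPP and LK cells (Sca-1 negative progenitors) differed in many genes. Both tests called 470 genes (3.6% of 13063) more positive and 1535 (11.8%) more negative in LMPP than in LK. Control LK libraries had less background (6.84 to 13.03% of counts) than control LMPP libraries, and what part of the 1535 this set was not tested. Mpo averaged 855 CPM in leukaemia LMPP and 237 CPM in control LMPP, but 2287 CPM in leukaemia LK and 7062 CPM in control LK, a difference between effects of 3.66 ± 0.69 (edgeR adjusted p = 0.00239). Ctsg differed by 3.08 ± 0.55 and Calr by 1.83 ± 0.24, with fold changes in LK of -0.54 and -0.44. Lgals1 differed by 1.64 ± 0.29, with 207 CPM in leukaemia LMPP, 46.8 CPM in control LMPP, 246 CPM in leukaemia LK and 146 CPM in control LK. For each of these genes leukaemia LMPP and leukaemia LK were closer to each other than control LMPP and control LK were. Flt3 was on the other side, with fold changes of -0.19 in LMPP and 2.87 in LK (difference -3.06 ± 0.56), at 591 CPM in leukaemia LMPP, 721 CPM in control LMPP, 334 CPM in leukaemia LK and 51.6 CPM in control LK. Mecom had fold changes of -1.12 in LMPP and 1.32 in LK (difference -2.44 ± 0.50). Hlf was called more negative in LMPP with counts as deposited (-2.44 ± 0.77, edgeR adjusted p = 0.0187), while the background-corrected difference had the opposite sign and was not called (1.55 ± 1.79, edgeR adjusted p = 0.591). The genes with the smallest p were Ybx3, Lgals1, AI506816, Ddx39 and Mthfd1, more positive in LMPP, and Cbx8, Nlrp10, Mirt1, AC140325.1 and Zswim6, more negative in LMPP. The last 5 averaged 12.9 to 118 CPM in control LMPP and 1.43 to 17.0 CPM in control LK, the direction in which background also differed.

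**Figure D5:**
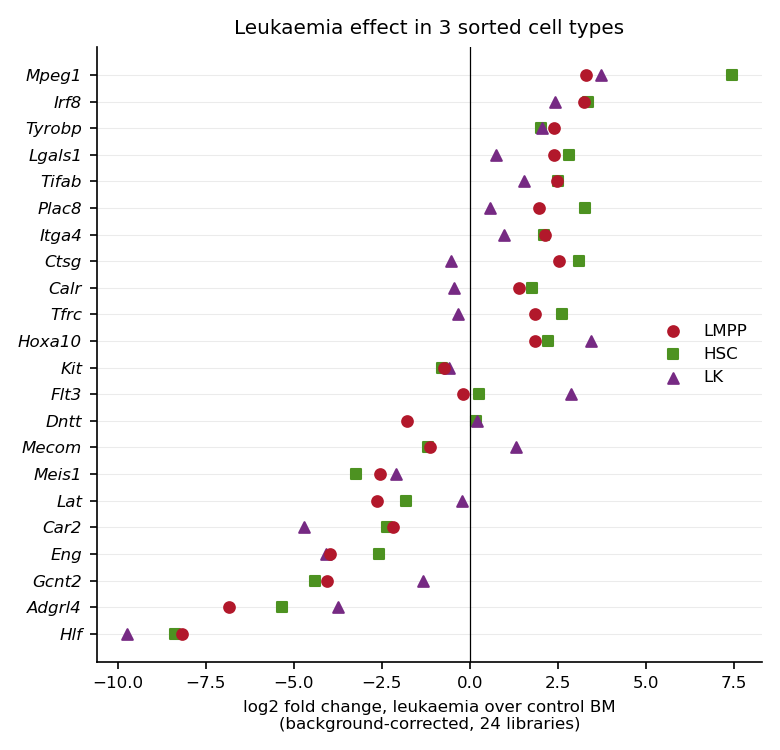
Background-corrected log2 fold change of leukaemia over control BM (x axis) for 22 genes in LMPP (red circles), HSC (green squares) and LK (purple triangles), from a fit of 24 libraries. Irf8, Tyrobp and Tifab are positive and Hlf, Adgrl4, Eng and Meis1 negative in all 3 cell types, while Ctsg, Calr and Tfrc are positive in LMPP and HSC and slightly negative in LK.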

How the data were processed

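Per the labels, total RNA of sorted cells was sequenced after a stranded pico-input library preparation. The authors deposited 2 tables of counts, 1 for leukaemia and 1 for control libraries, with 55414 gene identifiers each. The values are whole and their totals differ between libraries, so they were used as unscaled counts. Per the submitters' processing notes, GRCm39 and DESeq2 were used; the sources used here name no aligner, counter or strand setting, so overlapping, antisense and near-identical genes are uncertain. Symbols and exon lengths (52133 identifiers) came from a GRCm38 annotation. Groups follow the titles. Genes above background in at least 3 libraries of either group entered, without 487 genes of chromosomes X and Y that also passed. edgeR 4.0.16 (R 4.3.3, TMM, quasi-likelihood) was the main test, with limma 3.58.1 and DESeq2 1.42.0 as alternatives. The tests were run on simulated counts. The simulated background was drawn around the same values that were then subtracted, so errors in the background estimate could not show. Background was the mean count per kb of sensory receptor genes without the densest 1%; it was subtracted in the background-corrected test. Members, lists and rules were chosen with earlier results of these data known. Named genes were the 15 largest rises and falls, up to 4 per list, and 5 a side for cell types. 1 named gene is not reported here.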

Additional observations from a re-analysis of the deposited data

Results flagged for a closer look

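Values in which 1 library of a group of 4 stood far from the other 3 by Dixon's criterion (95% level) were found in 25 of 184 groups of the named genes, where chance gives about 5%. The groups are not independent, since the genes share libraries. In 15 genes the distant value was the high one of leukaemia library 2, all in CPM: Ahnak 3509, Cd74 3539, Clec9a 187.9, Cst3 1046, H2-Aa 1169, H2-Ab1 2139, H2-Eb1 909.9, Id2 291.3, Ifi205 392.1, Irf5 281.1, Itgb7 346.1, Lgals3 94.83, Mcl1 341.3, Mpeg1 1720 and Selplg 448.8. In 4 genes it was the high one of leukaemia library 1, with Calr at 1146 CPM, Ly6c2 at 175.3 CPM, Mpo at 1974 CPM and S100a9 at 1020 CPM. Chd3 was highest in leukaemia library 4 (57.6 CPM) and Eng in leukaemia library 3 (10.29 CPM). Among the controls, library 1 was highest for Gstp1 (93.14 CPM) and Ly6k (11.84 CPM), and library 4 was lowest for Ly6a (21.18 CPM) and Xrcc5 (32.64 CPM).

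The leukaemia effect differed between LMPP and LK for 24 named genes, by both edgeR tests of the difference. The values are differences of background-corrected log2 fold changes, LMPP minus LK. They were positive for Calr (1.83), Rpl8 (0.88), Mpo (3.66), Ly6c2 (2.94), Tfrc (2.20), Hspa5 (1.14), Car2 (2.55), Plac8 (1.40), Cox4i1 (0.53), Cebpa (1.60), Ctsg (3.08), Tmem229b (1.02), Zfpm1 (1.52), Tifab (0.93), Clec12a (1.40), Ldha (1.00), Cst7 (3.18) and Lgals1 (1.64). They were negative for Gcnt2 (-2.71), Mecom (-2.44), Lat (-2.42), Adgrl4 (-3.11), Flt3 (-3.06) and Ly6k (-4.37). Car2 and Zfpm1 were negative in both cell types, and less so in LMPP (-2.17 and -1.22) than in LK (-4.72 and -2.74).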

How the results depend on the processing

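Counts of calls depended on how background was handled. With counts as deposited, genes higher and lower in leukaemia LMPP numbered 9032 and 16212 with a minimum of 10 counts in 4 libraries and no background filter (higher genes 35.8% of calls), 9500 and 16353 with no filter (36.7%), and 645 and 6636 scaled on genes above background in both groups. Upper quartile scaling gave 2211 and 4154 (34.7%). Subtracting background with TMM gave 1216 and 1924 (38.7%), and the background-corrected test gave 810 higher. Without single libraries the counts were 2472 to 3211 higher and 2716 to 3513 lower. Replicate numbers did not pair leukaemia with control LMPP (correlations of same-numbered deviations 0.08, -0.14, -0.02 and -0.25, with 1 of 4 best with its own number); the replicate block gave 2699 and 3112, and, where equal numbers also mark the control libraries of seemingly 1 animal, 0 for LMPP against HSC and 4133 for LMPP against LK. The 204 rises were 133 without leukaemia libraries 1 and 3 and 123 without control libraries 1 and 3 (174 to 204 without single libraries). The 134 falls were 62 and 254 with control levels within 2-fold and 3-fold (89 to 135 without single libraries). For these rises and falls, leaving out libraries repeated both tests only, with the other rules kept from all libraries. LMPP against HSC gave 211 with DESeq2, 2 with the 10-count minimum, 32 with background subtracted, 29 background-corrected and 0 to 610 without single libraries. LMPP against LK gave 7034 with the 10-count minimum, 2506 with background subtracted and 2505 background-corrected. Log2 fold changes reversed with the 10-count minimum and no filter, in that order, for Nkg7 (0.146, 0.355), Kit (1.528, 1.712), Smarca2 (0.84, 0.996), Dntt (0.254, 0.387), Car2 (0.102, 0.246), Mecom (0.813, 0.963), Pfkm (0.108, 0.269), Hk1 (1.001, 1.191), Mllt6 (0.585, 0.719), Ddx58 (0.068, 0.235), Zfpm1 (0.922, 1.103), Lax1 (0.308, 0.44) and Gstp1 (0.811, 0.992), and with no filter for Tcf7 (0.077). Genes above background in both groups shifted by 2.36 and 2.53 there. Flt3 was -0.092 with background subtracted, -0.111 scaled on genes above background and -0.265 background-corrected; Ly6a was -0.188 and -0.177 in the last 2. S100a9 was -0.005 with the replicate block and -2.114 to 5.377 without single libraries, lowest without leukaemia library 1. Without single libraries Kit was -0.2 to 0.055 (positive without control library 3 or 4, 0.055 and 0.032). The causes were not tested. Few genes passed background in the controls, which limits what a low level there can show.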

Other observations

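Further gene groups, chosen after their values were seen, held rises and no falls. Of the 9 genes of the Arp2/3 complex, which branches actin filaments, all 9 were tested and 4 rose in leukaemia LMPP (Arpc1b, Arpc2, Arpc4 and Arpc5), with a median background-corrected log2 fold change of 0.74. Of 18 genes of MHC class I presentation, 6 rose (H2-D1, H2-K1, H2-Q6, H2-T23, Tap1 and Tapbp), with a median of 0.64; the H2 genes are near-identical copies and their counts are uncertain. Of 20 lysosomal genes 19 were tested, since 1 lies on chromosome X, and 4 rose (Ctsz, Grn, Npc2 and Psap), with a median of 1.24. Of 21 genes of endoplasmic reticulum entry and folding, 4 rose (Hsp90b1, P4hb, Spcs3 and Tram1), with a median of 0.41. Over all genes tested the median was -0.12, and 1.68% rose. In the order given, 7, 16, 7 and 12 members were above background in both groups. All genes of that kind had a median of 0.04 and rose more often. Of those with a 3′ UTR, 5.47% with a seed match and 8.26% without one rose.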
